A study of Homo sapiens with 4 samples.

Results

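The genes described here are 34 precursors of secreted neuropeptides, granins and prohormone-processing proteins, chosen by symbol from 28307 gene symbols measured in human neurons. They comprised 23 neuropeptide precursors, 6 granins, and 5 genes for processing enzymes and their inhibitor, and all 34 had a row in the count files. The neurons were excitatory neurons (i3N-WTC11) differentiated from the induced pluripotent stem cell line WTC11, with dCas9-KRAB, a catalytically dead Cas9 joined to a repressor domain, knocked into an intron of CLYBL under a CAG promoter. The CRISPRi group (2 libraries) received lentiviral guide RNAs against a transposable element of the MIR family on chromosome 11, and the control group (2 libraries) received the empty guide vector. Per the labels' protocols, virus was added to neurons at 2 weeks at a multiplicity of infection of about 3, puromycin was given at 0.5 μg/mL for 4 days, and RNA was collected at 7 days. All 4 libraries therefore carried dCas9-KRAB, lentivirus and selection. A pair of guides was used per element, the sources used here do not tell which library got which, and all neurons came from 1 cell line.

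Neuropeptides are made as longer precursors that enter the secretory pathway and are packed into dense core vesicles. Granins are acidic proteins that aggregate in the trans-Golgi network and help to form these vesicles. Inside the vesicle the convertases PCSK1 and PCSK2 cut the precursors after pairs of basic residues, carboxypeptidase E (CPE) trims the basic residues left at the new end, and PAM turns an exposed glycine into a C-terminal amide. PCSK1N is an inhibitor of PCSK1, and SCG5 is a chaperone of PCSK2.

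The cleavage signals of 2 precursors that the neurons transcribed are shown here as coding sequence, read from the GENCODE release 29 transcripts (GRCh38), 5′ to 3′ on the coding strand. Capitals mark the codons of a basic pair and, for TAC1, of the glycine before it. In SST, which encodes somatostatin, the pair stood before the last 14 codons. In TAC1 the first stretch ends the substance P segment and the second the neurokinin A segment, and in both a glycine codon preceded the pair, the signal on which PAM acts.
SST, coding bases 301 to 348: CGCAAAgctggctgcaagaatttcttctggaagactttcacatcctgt
TAC1, coding bases 172 to 213: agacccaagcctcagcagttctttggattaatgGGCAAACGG
TAC1, coding bases 289 to 330: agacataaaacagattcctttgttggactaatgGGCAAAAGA

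Runs of 2 or more basic codons were counted in the longest coding sequence of each member. The precursors held 1 to 12 runs in 97 to 267 codons, with a median of 4 runs, or 2.61 per 100 codons. The granins held 3 to 15 runs in 212 to 677 codons, a median of 1.64 per 100 codons. PENK, the enkephalin precursor, and TRH, the precursor of thyrotropin-releasing hormone, had 12 runs each, and SST had 1. A glycine codon directly before such a run was found in 13 of the 23 precursors, among them ADCYAP1 with 3 and TRH with 6. Of the 7 precursors expressed in these neurons 2 held such a site (TAC1 and ADCYAP1), and of the 16 others 11 did; the difference was not tested.

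Depth differed between the libraries and limits what follows. CRISPRi replicate 1 held 44839748 counts, CRISPRi replicate 2 held 41560282, and control replicate 2 held 39325038, but control replicate 1 only 944993. One count equalled 1.06 CPM (a gene's counts divided by all counts of its library, times 1000000) in that shallow library and 0.0223 to 0.0254 CPM in the other 3, called the deep libraries below. Control replicate 1 also stood apart in composition, and whether it came from a culture like the others was not tested. Every fold change over all 4 libraries rests in part on it. All 20 listed markers of dividing cells were higher in it than in each deep library, with a summed level of 619 CPM against 110 to 121 CPM, and none of them was at 0 in any library. Summed excitatory neuron markers were at 668 CPM in control replicate 1 and 702 to 717 CPM in the deep libraries. The vesicular glutamate transporters SLC17A7 (302 to 362 CPM) and SLC17A6 (145 to 162 CPM) were present in every library, NEUROD6 had 0 counts in all 4, and TBR1 did not exceed 1.05 CPM. POU4F1 and PRPH, listed as markers of sensory and autonomic neurons, were at 388 to 442 CPM and 272 to 332 CPM.

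The element is given at chromosome 11 from 47605296 to 47605575 in the design text and from 47608036 to 47608220 in the title, taken to be hg38. Of the members only GAL, CALCA and CALCB lie on chromosome 11, at 21.1, 32.6 and 32.5 Mb from these intervals. The genes beside the element did not pass the test described below. C1QTNF4 had a log2 fold change (CRISPRi over control) of 0.06 (SE 0.16), with 15 counts in control replicate 1. MTCH2 had one of 0.08 (SE 0.10). Without control replicate 1 the values were 0.06 for C1QTNF4 and -0.02 for MTCH2.

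A gene was taken as expressed when it reached 1 CPM in at least 3 of the 4 libraries. By this measure 18 of the 34 members were expressed, namely 7 of 23 precursors, 6 of 6 granins and 5 of 5 processing genes. A further 9 members had counts but did not meet this rule, and 7 had 0 counts in every library. CRH, NPPC, TRH and CALCB did not meet it although they exceeded 1 CPM in some library. CRH, NPPC and TRH had 0 counts in control replicate 1, so all 3 deep libraries had to reach 1 CPM. By this rule the neurons thus expressed every listed granin and processing gene and a minority of the listed peptide precursors. To compare genes with each other, CPM was divided by the exon length in kilobases (CPM per kb), averaged over the deep libraries. PCSK1N was highest at 356 CPM per kb, followed by CPE (317), CHGA (205), SST (198) and VGF (116). Among 18883 genes with a length, PCSK1N ranked 81, CPE 95, CHGA 153 and SST 158. The other granins lay between 30.8 (SCG5) and 91.5 CPM per kb (CHGB), and PAM was at 43.6. The convertases were lower, with PCSK1 at 9.44 and PCSK2 at 8.29 CPM per kb, ranks 5599 and 6049. The remaining expressed precursors ran from 14.3 CPM per kb for ADCYAP1 down to 1.87 for UCN.

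**Figure D1:**
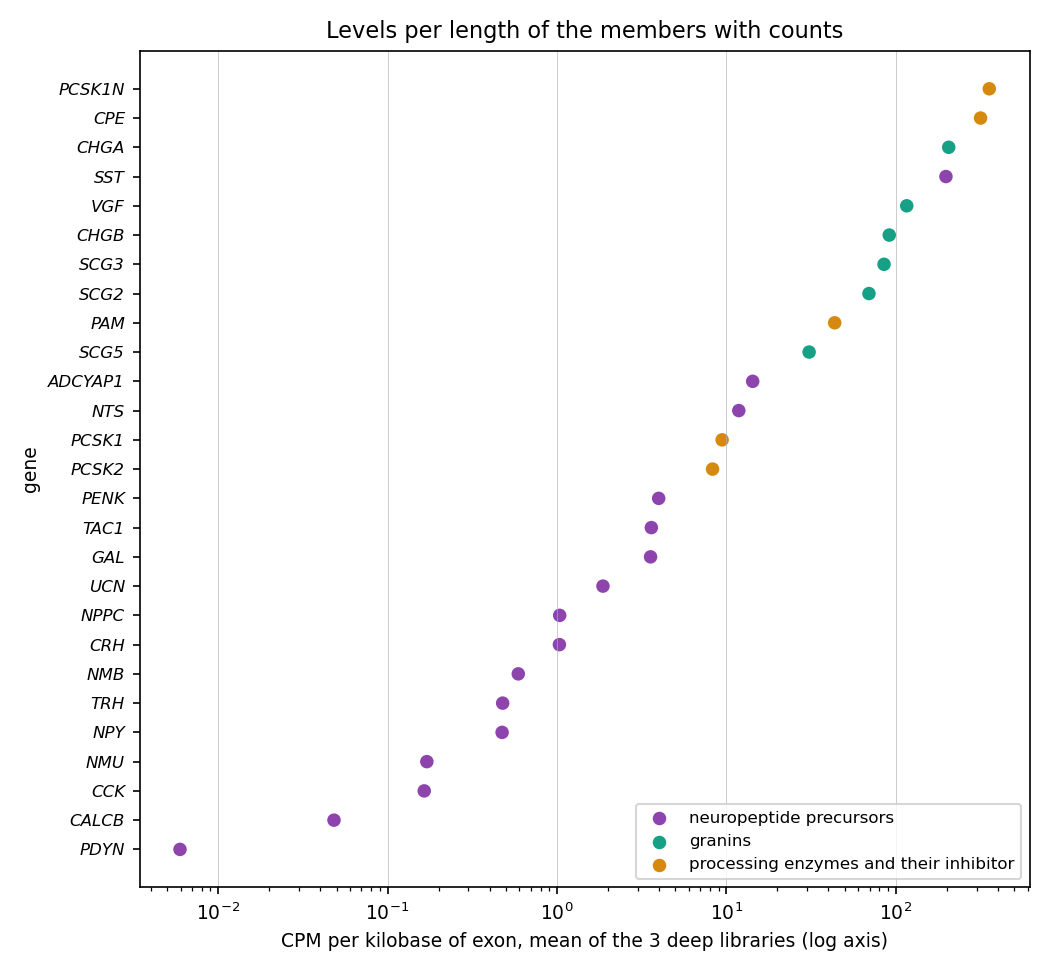
Level per length (CPM per kilobase of exon, mean of the 3 deep libraries, log axis) of the 27 members with at least 1 count, coloured by role. The top of the order holds PCSK1N, CPE and CHGA, and among precursors only SST lies with the granins.

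Somatostatin led the precursors. Pairs of values are given from here on in the order replicate 1, replicate 2. SST, whose product inhibits hormone and transmitter release, was at 107 and 134 CPM (CRISPRi) against 86.8 and 125 CPM (control). Control replicate 1 was the lowest, and the groups overlapped because CRISPRi replicate 1 lay below control replicate 2. The share of SST among all precursor counts was 54.9% and 60.4% with guides, and 55.8% and 58.6% with the empty vector. In the cortex SST marks a class of inhibitory interneurons. The 10 listed inhibitory markers summed to 9.05 to 9.58 CPM in the deep libraries and 20.1 CPM in control replicate 1. Most of this sum in the deep libraries was SLC32A1, the vesicular GABA transporter, at 6.66 to 6.93 CPM there and 4.23 CPM in control replicate 1. The transcription factors DLX2 and DLX1 were at 8.47 and 4.23 CPM in control replicate 1. The GABA-synthesising enzymes GAD1 and GAD2 did not exceed 0.433 and 0.268 CPM, and DLX5 and DLX6 had 0 counts in all 4 libraries.

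ADCYAP1, the precursor of the peptide PACAP, came next at 51.1 and 48.8 CPM (CRISPRi) against 41.3 and 48.8 CPM (control). Together SST and ADCYAP1 gave 81% to 82.3% of precursor counts in each library. NTS, the neurotensin precursor, was at 13.8 and 14.3 CPM (CRISPRi) against 4.23 and 15.9 CPM (control). The 4 counts of NTS in control replicate 1 have an exact Poisson 95% interval of 1.15 to 10.8 CPM (counting error only), below all 3 deep libraries. PENK was at 9.41 and 10.9 CPM (CRISPRi) against 4.23 and 9.54 CPM (control), again lowest in control replicate 1. Its 4 counts there have the same interval, which holds CRISPRi replicate 1 and control replicate 2 but not CRISPRi replicate 2. Control replicate 1 therefore set the low end of both NTS and PENK.

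TAC1, the precursor of substance P, was at 5.02 and 4.07 CPM (CRISPRi) against 5.29 and 4.32 CPM (control), and the groups overlapped. GAL, the galanin precursor, went the other way from NTS, with 3.03 and 3.08 CPM (CRISPRi) against 8.47 and 2.64 CPM (control). Its 8 counts in control replicate 1 have an exact Poisson 95% interval of 3.65 to 16.7 CPM, above all 3 deep libraries. UCN, the urocortin precursor, was at 1.4 and 1.78 CPM (CRISPRi) against 0 and 1.27 CPM (control). A count of 0 in control replicate 1 allows up to 3.17 CPM if 3 counts are taken as the limit. The exact Poisson 95% interval of 0 counts there reaches 3.9 CPM. The 0 for UCN therefore does not show that its level there was lower than in the deep libraries.

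With counts but short of the expression rule were CRH, which encodes corticotropin-releasing hormone, and NPPC, TRH, NMB, NPY, CCK, NMU, CALCB and PDYN. CRH had 43 and 65 counts (CRISPRi) against 0 and 89 (control), that is 0.959 and 1.56 CPM against 0 and 2.26 CPM. NPPC, the C-type natriuretic peptide precursor, was at 1.05 and 0.938 CPM (CRISPRi) against 0 and 1.35 CPM (control). NPY, CCK, NMB and NMU did not exceed 0.626 CPM in any library, and PDYN had 2 counts in control replicate 2 and 0 elsewhere. CALCB, a precursor of calcitonin gene-related peptide, had 11, 4 and 9 counts in the deep libraries, at most 0.245 CPM, and 5 counts in control replicate 1, or 5.29 CPM with an exact Poisson 95% interval of 1.72 to 12.3. CALCB has a close copy in CALCA, so the placing of its reads is uncertain. GAL and CALCB were higher in the library in which dividing-cell markers were high; the part of those cells in their levels was not tested.

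The 7 precursors with 0 counts in every library were VIP, TAC3, CALCA, PNOC, GRP, CARTPT and POMC. With 3 counts taken as the limit, a count of 0 allows up to 0.0669, 0.0722 and 0.0763 CPM in the deep libraries and 3.17 CPM in control replicate 1. CARTPT and POMC encode peptides of hypothalamic feeding circuits, and VIP marks another class of cortical interneuron.

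All granins were expressed and varied little among the 3 deep libraries, while control replicate 1 was lower for all 6. For SCG2, SCG3, SCG5 and VGF the exact Poisson 95% interval of control replicate 1 held all 3 deep libraries. For CHGB it held 1 of them and for CHGA 0. CHGA (chromogranin A) was at 415 and 432 CPM (CRISPRi) against 337 and 424 CPM (control). VGF, the source of several neuroendocrine peptides, was at 309 and 314 CPM (CRISPRi) against 293 and 319 CPM (control). SCG3, which binds chromogranin A at the vesicle membrane, was at 286 and 280 CPM (CRISPRi) against 258 and 282 CPM (control). Control replicate 1 was the lowest library for all 3 genes. CHGB was at 225 and 239 CPM (CRISPRi) against 195 and 236 CPM (control), and SCG2, the precursor of secretoneurin, at 171 and 177 CPM (CRISPRi) against 165 and 189 CPM (control). For all of these genes the groups overlapped. SCG5 was at 42.3 and 36.4 CPM (CRISPRi) against 33.9 and 35.8 CPM (control), and its groups did not overlap. The read-through gene ARHGAP11A-SCG5, which overlaps SCG5, had 31 counts (0.788 CPM) in control replicate 2 and 0 in the others. That is more than the margin of SCG5 between CRISPRi replicate 2 and control replicate 2, so the lack of overlap may depend on whether these reads belong to SCG5, which was not tested.

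Among the processing genes CPE was at 768 and 767 CPM (CRISPRi) against 620 and 765 CPM (control). The 3 deep libraries lay within 1.00-fold of each other (highest over lowest) and control replicate 1 lay below them, with an exact Poisson 95% interval of 571 to 672 CPM. PCSK1N was at 381 and 369 CPM (CRISPRi) against 339 and 374 CPM (control). PAM was at 229 and 238 CPM (CRISPRi) against 237 and 243 CPM (control), the one gene of this group in which control replicate 1 was not the lowest. PCSK1 was at 47.6 and 49.3 CPM (CRISPRi) against 44.4 and 49.4 CPM (control). PCSK2 was at 43.7 and 40.8 CPM (CRISPRi) against 36 and 40.2 CPM (control). Only CPE and PCSK2 had groups that did not overlap, and in both the margin over control replicate 2 was small. Over all 13617 genes that met the expression rule, 17.1% had both CRISPRi libraries above both controls.

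**Figure D2:**
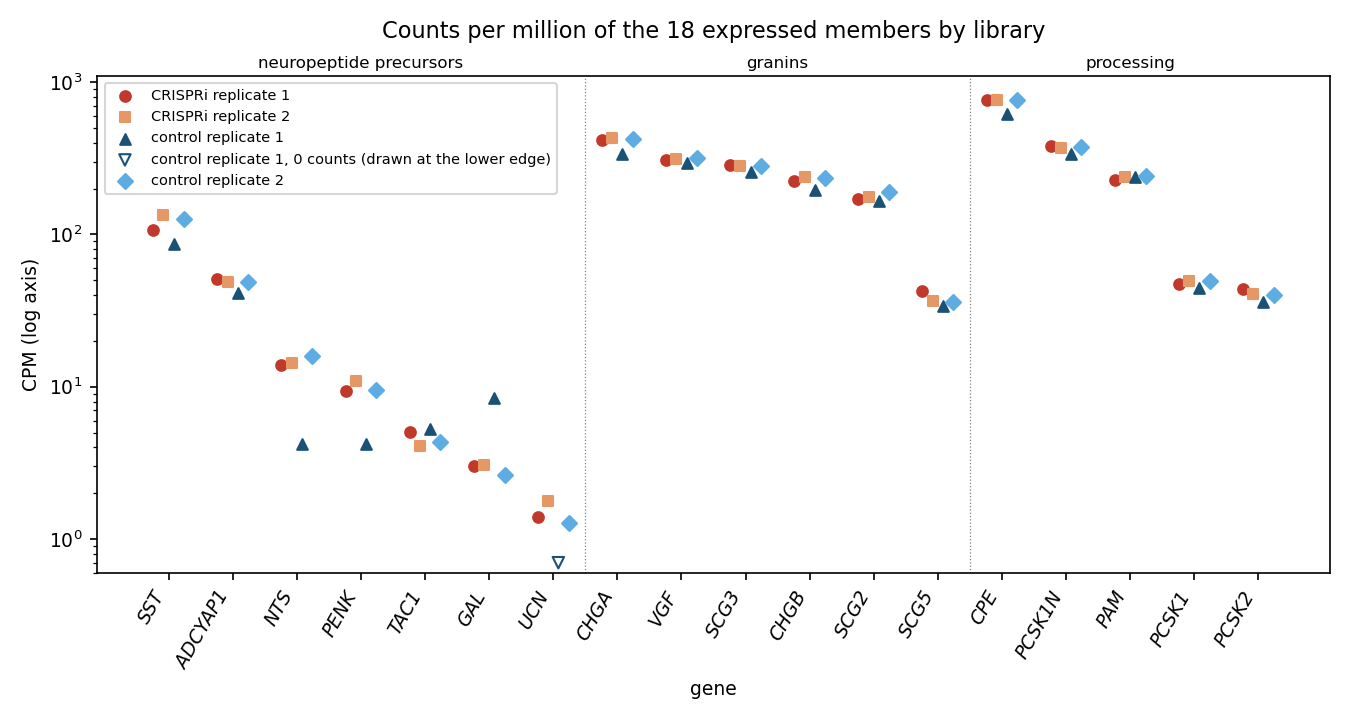
CPM (log axis) of the 18 expressed members in each of the 4 libraries, ordered by role and mean; the open triangle marks UCN with 0 counts. Control replicate 1 (filled triangles) lies far from the others at NTS, PENK and GAL and below them at CHGA and CPE, while the 3 deep libraries nearly coincide for granins and processing genes.

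The study's comparison asks what changed in neurons whose MIR element was targeted. No member was called higher or lower in CRISPRi neurons. With the quasi-likelihood test of edgeR, p-values adjusted by Benjamini-Hochberg over all genes, 0 of 24 tested members passed an adjusted p of 0.05, against 4 of 15708 genes (0.0255%), all of them lower. At an unadjusted p of 0.05, 0 of 24 members passed, against 0.961% of all genes, and the smallest unadjusted p among the members was 0.221 (edgeR, SCG5). DESeq2 and limma-voom called 0 of the members as well (DESeq2 gave no adjusted p for NPY, CCK, TRH and NMB), and 0.0764% and 0.0127% of all genes. The 10 members not tested were the 7 at 0 counts with CALCB, PDYN and NMU, which the filter on low counts removed.

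Fold changes were small in the abundant genes. CPE had a log2 fold change (CRISPRi over control) of 0.16 with an SE of 0.12 and a 95% interval of -0.14 to 0.46. CHGA was at 0.15 (interval -0.16 to 0.47), SCG5 at 0.16 (-0.13 to 0.46), PCSK2 at 0.12 (-0.14 to 0.38) and SST at 0.10 (-0.38 to 0.59). The other granins and processing genes lay between -0.04 for SCG2 and 0.10 for CHGB. For 12 of the 24 tested members the interval lay within a 1.5-fold change either way, and for 16 within a 2-fold change. The low precursors were measured less well: UCN was at 0.51 (interval -1.0 to 2.02) and GAL at -0.30 (-1.75 to 1.14). Both intervals include a 2-fold difference either way; without control replicate 1 that of GAL was narrower, as given below.

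The median log2 fold change was 0.09 over the 24 tested members (19 positive), 0.01 over all genes, 0.10 for the 13 tested precursors, 0.09 for the 6 granins and 0.08 for the 5 processing genes. Without control replicate 1 the median over the members was 0.01 (14 of 24 positive), that of the precursors 0.07 (8 of 13 positive), that of the granins -0.01 and that of the processing genes 0.01, while that of all genes was -0.00017. CPE then stood at 0.01 (95% interval -0.08 to 0.10), CHGA at 0.00 (-0.11 to 0.11), PCSK1N at 0.01 (-0.09 to 0.11) and VGF at -0.03 (-0.13 to 0.07). SST turned to -0.05 with a wide interval of -1.20 to 1.10, NTS to -0.17 (-0.39 to 0.05) and GAL to 0.21 (-0.24 to 0.67). No member passed in that comparison either, in which 0.659% of all genes did. CRH (-0.84, interval -1.66 to -0.02) and SCG2 (-0.12, -0.23 to -0.01) had intervals that left out 0, with edgeR adjusted p-values of 0.98 for both. In this fit the control group is a single library, assumed to vary like the CRISPRi pair.

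Without control replicate 2, which leaves the shallow library as the only control, CPE (0.34, edgeR adjusted p = 0.00666), CHGA (0.36, adjusted p = 0.0126) and NTS (1.76, adjusted p = 0.0336) were called higher in CRISPRi. Of all genes 3.61% were called higher in that fit, and 8.58% in either direction. These calls rest on control replicate 1 alone.

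**Figure D3:**
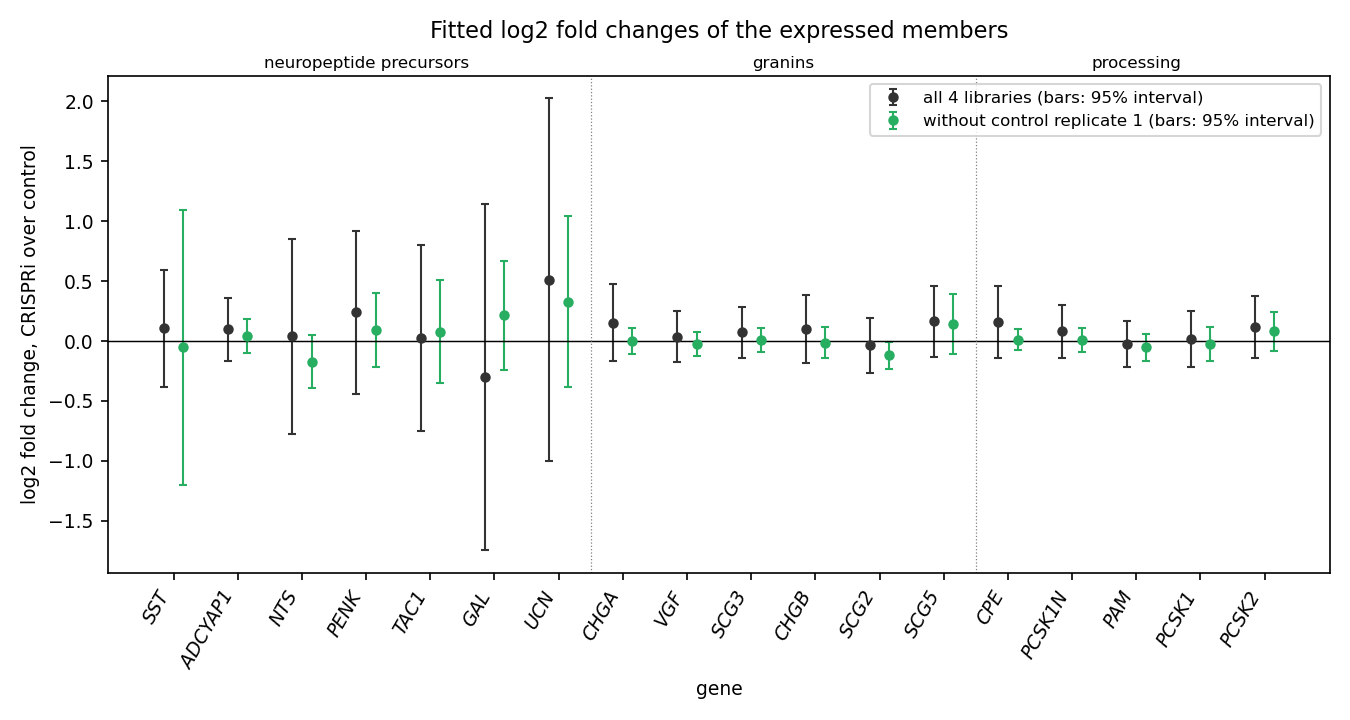
Log2 fold change (CRISPRi over control) of the 18 expressed members with 95% intervals, fitted on all 4 libraries (dark) and without control replicate 1 (green). All dark intervals include 0; in the green fit CPE and CHGA lie at 0.01 and 0.00, while SCG2 lies at -0.12, farther from 0 than with all libraries.

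Between the deep libraries the secretory genes hardly varied. The ratio of the highest to the lowest deep library had a median of 1.04 over the 11 granins and processing genes, ranging from 1.00 for CPE to 1.18 for SCG5, against a median of 1.08 over all 13617 genes that met the expression rule. SCG5, SCG2 (1.11) and PCSK2 (1.09) lay above that median. The lowest of the 11 in any deep library was SCG5 at 35.8 CPM, while the rule for all genes starts at 1 CPM. Genes of matched abundance were not compared. Both CRISPRi libraries lay above both controls for 4 of the 18 expressed members (UCN, SCG5, PCSK2 and CPE) and below both for 0, where the shares over all 13617 genes were 17.1% and 17.6%. Control replicate 1 lay below all 3 deep libraries for 15 of the 18 expressed members, a position that 46.4% of all expressed genes shared, and above them for TAC1 and GAL, as for 42.2% of all expressed genes.

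Over the 11 granins and processing genes the ratio of control replicate 1 to the mean of the deep libraries ran from 0.794 for CHGA to 1.00 for PAM, with a median of 0.905, and over all expressed genes the median was 0.985. Summed granins were at 1281 CPM in control replicate 1 (exact Poisson 95% interval 1210 to 1356) and 1448 to 1486 CPM in the deep libraries. Summed processing genes were at 1276 CPM (1205 to 1350) against 1464 to 1471 CPM. Summed precursors were at 156 CPM (131 to 183) against 195 to 222 CPM. All 3 sums were thus below the deep libraries by more than counting error. This is the library in which dividing-cell markers summed to 619 CPM, and their part in the lower secretory levels was not tested. In bulk RNA, fewer neurons and less of a transcript per neuron cannot be told apart.

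**Figure D4:**
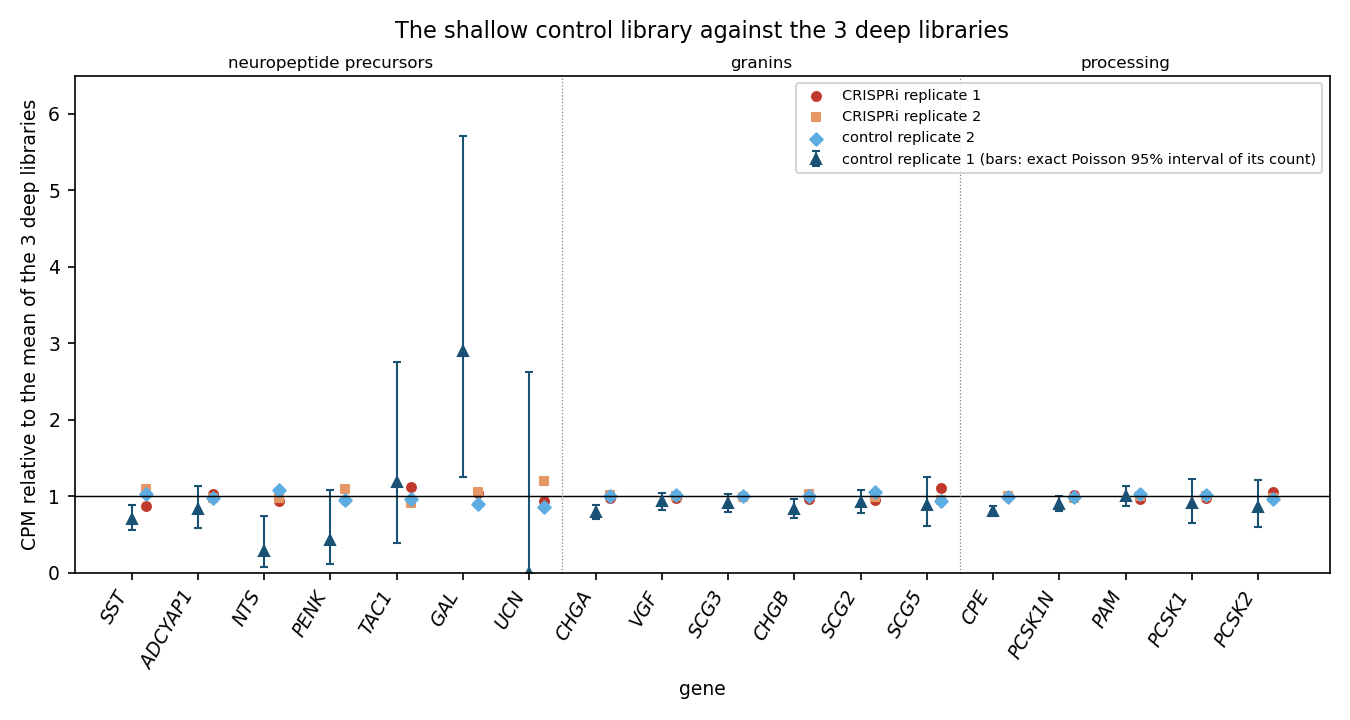
CPM of each expressed member relative to the mean of the 3 deep libraries. Triangles give control replicate 1 with the exact Poisson 95% interval of its count, and the other symbols the deep libraries; intervals of NTS, CHGA and CPE lie below all deep libraries and that of GAL above them.

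Other genes of the pathway were taken from 5 lists written for this tissue. In each list edgeR, DESeq2 and limma-voom called 0 genes, and 0 had an unadjusted edgeR p under 0.05. Of 34 other peptide precursors 13 had 0 counts in every library, 1 met the expression rule (ADM2, at 1.06 to 2.12 CPM), and of 9 tested 0 passed. EDN3, which encodes endothelin 3, had the smallest p of these, with 49 and 42 counts (CRISPRi) against 0 and 27 (control) (log2 fold change 0.74, SE 0.59). Among 41 receptors of the members' peptides 15 were expressed, and of 26 tested 0 passed (median 0.06, or -0.0061 without control replicate 1). SORT1, sortilin, which binds neurotensin, was the highest at 180 and 177 CPM (CRISPRi) against 153 and 165 CPM (control). Its log2 fold change was 0.16 (SE 0.08), the one with the smallest p in that list. NPR2, the receptor of C-type natriuretic peptide, was at 98.4 to 124 CPM. SSTR2, a somatostatin receptor, was at 99 and 95.1 CPM (CRISPRi) against 75.1 and 95.6 CPM (control), so transcripts of ligand and receptor were present in the same cultures.

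All 24 listed genes of dense core vesicle biogenesis were expressed, and 0 passed (median 0.01). VPS41, which acts in sorting to the regulated secretory pathway, was at 81.6 and 83.3 CPM (CRISPRi) against 84.7 and 61.3 CPM (control), so control replicate 2 stood alone. The log2 fold change was 0.31 (SE 0.13, edgeR adjusted p = 1), 0.43 without control replicate 1 (edgeR adjusted p = 0.0174), where it was the 1 gene of the list to pass, and -0.01 without control replicate 2. The level of 1 control library therefore decided that call. Of 25 genes of vesicle transport and release 22 were expressed and 0 of 25 passed (median 0.07, or -0.0079 without control replicate 1). The kinesin KIF1A, a carrier of dense core vesicles, was at 2170 to 2422 CPM. SYT4, a synaptotagmin found on these vesicles, was at 537 and 556 CPM (CRISPRi) against 430 and 523 CPM (control) (log2 fold change 0.20, or 0.07 without control replicate 1). Of 16 tested other convertases and trimming peptidases 0 passed (median 0.01). The highest of these were NLN, neurolysin, which degrades neurotensin, at 111 to 118 CPM, and PREP, prolyl endopeptidase, at 87 to 91.5 CPM. THOP1, thimet oligopeptidase, was at 43.4 CPM in control replicate 1 and 24.2 to 24.5 CPM elsewhere.

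Promoter sequence was compared as a feature the choice of genes did not use. Windows from 250 bases before to 50 after the gene start (RefSeq, GRCh38.p14) matched 27 of the 34 members; GAL, CALCB, PENK, PNOC, CRH, SCG2 and CHGB were not matched. The cAMP response element palindrome TGACGTCA, a textbook site of CREB in the somatostatin promoter, was searched on both strands, which read alike for this palindrome. It stood in 5 of the 27 members (18.5%) and in 614 of 27305 genes (2.25%). Because the site was known from the SST promoter, the match in SST was fixed in advance. The motif was thus picked with a member in view, and the share among the members is not independent of that choice. The difference between the 2 shares was not tested. The members were SST, CHGA, VGF and PCSK1, which were expressed, and CARTPT, which had 0 counts. The stretches, with the element in capitals, are given 5′ to 3′ on the gene's strand.
SST, chr3:187670404-187670471, minus strand: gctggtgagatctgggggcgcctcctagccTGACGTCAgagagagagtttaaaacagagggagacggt
CHGA, chr14:92923066-92923133, plus strand: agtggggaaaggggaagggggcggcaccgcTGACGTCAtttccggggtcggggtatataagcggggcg
VGF, chr7:101165611-101165678, minus strand: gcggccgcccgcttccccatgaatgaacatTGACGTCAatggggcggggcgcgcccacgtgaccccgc
PCSK1, chr5:96433288-96433355, minus strand: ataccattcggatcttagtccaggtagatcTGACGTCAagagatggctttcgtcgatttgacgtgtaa
CARTPT, chr5:71719102-71719169, plus strand: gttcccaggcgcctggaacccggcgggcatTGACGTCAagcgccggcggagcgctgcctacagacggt

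The element began 47 bases before the gene start in SST, 54 in CHGA, 79 in VGF, 77 in PCSK1 and 143 in CARTPT. Its shorter core TGACG, which the palindrome contains, was in 17 of 27 members and 28.4% of all genes, and in 12 of 14 expressed and 5 of 13 other members. The TATA box letters TATAAA were in 8 of 27 members and 14% of all genes, and in 3 of 14 expressed and 5 of 13 other members. Both TGACG and TATAAA were counted on either strand and anywhere in the window. A match of TATAAA therefore need not have the place or direction of a TATA box. These matches describe letters in a window and no binding was measured. The 4 expressed genes with the palindrome had log2 fold changes of 0.10, 0.15, 0.04 and 0.02 (SST, CHGA, VGF and PCSK1), none of which passed.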

How the data were processed

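PolyA RNA was sequenced as paired-end 75 bp reads from 4 libraries. For each gene the deposited files list a read count and an FPKM, both made by the authors; the unit FPKM was read from the values, because the files have no header. The genome build was hg38 and edgeR and limma were among the tools, per the submitters' processing notes. Aligner, counter and strandedness are not given in the sources used here, so antisense and overlapping genes are uncertain. Deposited FPKM values served only as a check of CPM per kb (median ratio 0.978 over 63 values of expressed members, range 0.486 to 1.10). The lowest ratios were those of PENK, with 3.77 CPM per kb against an FPKM of 7.33 in CRISPRi replicate 1. The level per length of PENK is therefore uncertain. CHGA and SCG5, counted on alternate contigs, are listed at an FPKM of 0.

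Counts were summed per symbol. CRISPRi and control were compared in R 4.3.3 with the robust quasi-likelihood F test of edgeR 4.0.16 (two-sided, TMM scaling, filterByExpr, Benjamini-Hochberg over all tested genes). SE and 95% intervals derive from the F statistic. An exact permutation test of 2 against 2 cannot go below 0.333. Exon lengths are unions over GENCODE release 29 coding transcripts. DESeq2 1.42.0, limma-voom (limma 3.58.1), other scalings and filters, a replicate block, rows on primary chromosomes only and each library left out were alternatives. The labels call the replicates biologically independent. The members, gene lists and rules were chosen with earlier results of these data known. Named genes were all members, C1QTNF4 and MTCH2, and in each further list the 3 with the smallest p and the 2 with the highest CPM, of which not all are reported. GAD1, GAD2, DLX5, DLX6, NEUROD6, TBR1, SLC32A1, DLX1, DLX2 and ARHGAP11A-SCG5 were named after their values were seen.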

Additional observations from a re-analysis of the deposited data

How the results depend on the processing

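Members called numbered 0 under every alternative run except without control replicate 2, where 3 were called higher (0 to 3 higher with a library left out, 0 lower). Over all genes, 0 were higher and 4 lower; DESeq2 gave 1 and 11, limma-voom 0 and 2, and the replicate block 17 and 25, while leaving out a library gave 2 to 580 higher and 15 to 798 lower. With a library left out, calls ran from 0 to 1 for receptors, 0 to 2 for vesicle biogenesis, 0 to 6 for transport and release, and 0 to 1 for other convertases. The median over tested members, 0.09, ran from 0.0085 to 0.32; of the 24, 7 had 0 counts in control replicate 1, and over the other 17 the highest value was 0.25. Members expressed numbered 22 at 0.5 CPM and 15 at 5 CPM, against 18.

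The members had 283 values under alternatives, of which 252 kept sign and call, 3 gained a call and 28 turned sign; the cause was not tested. Signs turned with limma-voom for SST (-0.025), CCK (-0.36), VGF (-0.0061), PCSK1 (-0.017), NPPC (0.13), CORT (-0.038) and NPR2 (-0.019), with DESeq2 for TAC1 (-0.013) and NPPC (0.15), with the replicate block for TAC1 (-0.069) and NPPC (0.036), and with a filter of 1 CPM in 2 libraries for TRH (-0.017). With a library left out, log2 fold changes ran from -0.051 to 0.51 for SST, -0.19 to 0.12 for TAC1, -1.44 to 0.21 for GAL, -0.17 to 1.76 for NTS, -0.12 to 0.10 for SCG2, -0.056 to 0.0097 for PAM, -0.016 to 0.28 for CHGB, -0.026 to 0.12 for VGF and -0.024 to 0.15 for PCSK1. They ran from -0.18 to 6.04 for CCK, -0.84 to 8.20 for CRH, -0.15 to 7.74 for TRH and -0.43 to 7.86 for NPPC, whose upper ends are fitted against a lone library at 0 counts, depend on the prior count and are no bounds. Outside the members they ran from -0.0075 to 0.43 for VPS41, -0.084 to 0.18 for C1QTNF4, -0.016 to 0.25 for MTCH2, -0.043 to 0.32 for NPR2, -0.012 to 0.16 for KIF1A, -0.012 to 0.15 for ATP6V0A1 and -0.031 to 0.28 for SCAMP5. The labels do not say that replicate numbers pair the samples, and deviations of same-numbered libraries correlated at -0.03, so the replicate block is not a paired analysis; it called no member. Rows on primary chromosomes only give no value for CHGA and SCG5. In control replicate 1, 3 counts equal 3.17 CPM, which limits every precursor below that level.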
